A study of Mus musculus with 16 samples.

Results

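Leukotriene B4 is made and sensed by the products of 5 genes measured here in mouse fat: Lta4h, Alox5, Alox5ap, Ltb4r1 and Ltb4r2. They were taken by gene symbol from a table of 45777 genes. The study asked what extra LTA4H in adipocytes does to the visceral fat pad during high-fat feeding. RNA was sequenced from epididymal white adipose tissue of male mice in 4 groups of 4 mice each. OE mice (A-LTA4HOE, with LTA4H overexpressed specifically in adipocytes) were studied at 20 weeks of age after 16 weeks of the diet, Ctrl mice at the same age, OE mice at 8 weeks after 4 weeks of the diet, and Ctrl mice at 8 weeks. Every group, Ctrl included, ate the HFD22 diet with 60% of its energy as fat from 4 weeks of age, so no group on a standard diet takes part. The labels name neither the promoter that drives the extra gene nor the number of founder lines. Age, time on the diet and anything else that differed between the collections cannot be told apart, and "20 weeks against 8 weeks" stands for all of them.

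Leukotriene synthesis starts when arachidonic acid, freed from membranes, is presented by the scaffold protein FLAP (gene Alox5ap) to 5-lipoxygenase (Alox5), which makes the unstable intermediate leukotriene A4. LTA4H (Lta4h) hydrolyses it to leukotriene B4, a strong attractant of neutrophils and other leukocytes. LTA4H also works outside cells as an aminopeptidase that breaks down the inflammatory tripeptide Pro-Gly-Pro. Leukotriene B4 is sensed with high affinity by BLT1 (Ltb4r1), found mainly on leukocytes, and with low affinity by BLT2 (Ltb4r2), which also binds other lipids. In obese fat, macrophages are known as a main source of 5-lipoxygenase products.

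The stretches just before the starts of Lta4h, Alox5 and Ltb4r1 are shown because these are the enzymes and the receptor whose levels are compared below; of the 5 genes, these 3 have an entry in the RefSeq promoter table used (GRCm38.p6). Each line gives the 250 bases before the annotated start on the gene's own strand, which lie at chr10:93453146-93453395 (plus strand) for Lta4h, chr6:116461179-116461428 (minus strand) for Alox5 and chr14:55765712-55765961 (plus strand) for Ltb4r1. Capitals mark matches, on either strand, to GGGCGG (a GC box), GAGGAA (a core bound by the myeloid factor PU.1), the letters CCAAT, known as the CCAAT box, or the TATA box, TATAAA.
Lta4h: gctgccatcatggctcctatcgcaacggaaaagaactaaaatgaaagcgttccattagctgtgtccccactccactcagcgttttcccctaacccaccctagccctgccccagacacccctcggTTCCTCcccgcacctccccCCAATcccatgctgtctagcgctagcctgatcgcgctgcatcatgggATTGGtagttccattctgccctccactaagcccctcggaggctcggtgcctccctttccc
Alox5: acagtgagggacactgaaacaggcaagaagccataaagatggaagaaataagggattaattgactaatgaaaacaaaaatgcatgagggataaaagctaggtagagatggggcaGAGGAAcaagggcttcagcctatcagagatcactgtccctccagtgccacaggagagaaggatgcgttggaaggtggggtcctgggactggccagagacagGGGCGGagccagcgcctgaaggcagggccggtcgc
Ltb4r1: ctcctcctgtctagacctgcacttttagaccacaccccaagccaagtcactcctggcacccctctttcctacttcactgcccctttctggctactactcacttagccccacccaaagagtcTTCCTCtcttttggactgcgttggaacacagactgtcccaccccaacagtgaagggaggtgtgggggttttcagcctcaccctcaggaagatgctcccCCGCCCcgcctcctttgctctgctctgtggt
Lta4h held the PU.1 core on its minus strand at −126 to −121, counted from −1 as the last base before the start, and CCAAT at −107 to −103 and, on the minus strand, at −60 to −56. Alox5 held the PU.1 core at −136 to −131 and a GC box at −35 to −30. Ltb4r1 held the PU.1 core on the minus strand at −129 to −124 and a GC box on the minus strand at −31 to −26. No marked matches overlapped, and TATAAA was in none of the 3. Of 32851 promoters of the same length, 23.3% held the PU.1 core, 32.7% the GC box, 33.8% CCAAT and 12.4% TATAAA, so these letters are common. The G and C content was 58.8% for Lta4h, 52.8% for Alox5 and 56.8% for Ltb4r1, against a median of 52.4%.

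Libraries held 33.6 to 67.6 M counted reads (M, mega). The tissue label was checked against 10 mature adipocyte markers, whose summed level was 18740 to 29150 CPM (read counts scaled to the size of each library) in OE and 15770 to 23440 CPM in Ctrl at 20 weeks, and 23250 to 41910 CPM in OE and 26760 to 40200 CPM in Ctrl at 8 weeks. Markers of the epididymal duct, the tissue next to this pad, summed to 2702 CPM in OE replicate 2 and 4093 CPM in Ctrl replicate 4 at 8 weeks, and to at most 209.6 CPM in the other libraries. The same 2 libraries also held the most smooth muscle marker RNA, 3903 CPM in OE replicate 2 and 4000 CPM in Ctrl replicate 4. Both also had the lowest adipocyte marker sum of their group. Counts and calls in the pathway lists that turn on these libraries are given with and without them. Counts of cell type markers were made with all libraries only. Bulk libraries cannot tell fewer cells of a type from less RNA per cell. P-values of the edgeR fit rest on the spread between libraries within groups, estimated jointly over all 4 groups. The labels number the 4 libraries of a group as separate mice.

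Lta4h was higher in OE pads at both ages, and every OE library lay above every Ctrl library. Lta4h (gene ID 16993) lies on chromosome 10 from 93453396 to 93484896. At 20 weeks it had 270, 286, 278 and 239 CPM in OE replicates 1 to 4, against 95.4, 82.4, 89.0 and 87.3 CPM in Ctrl. The 8-week pads had 398, 251, 427 and 335 CPM in OE, against 104, 79.4, 85.4 and 90.0 CPM in Ctrl. The genotypes did not overlap, and the 8-week OE mice spread more widely than any other group. At 20 weeks the level was 3.03-fold higher in OE than in Ctrl (95% interval 2.46 to 3.74; log2 fold change 1.60 ± 0.14, SE; adjusted p = 1.45e-04, edgeR quasi-likelihood test). At 8 weeks the level was 3.94-fold higher in OE (95% interval 3.18 to 4.86; log2 fold change 1.98 ± 0.14; adjusted p = 2.08e-05, same test). The deposited table does not separate reads of the extra copy from those of the endogenous gene.

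**Figure D1:**
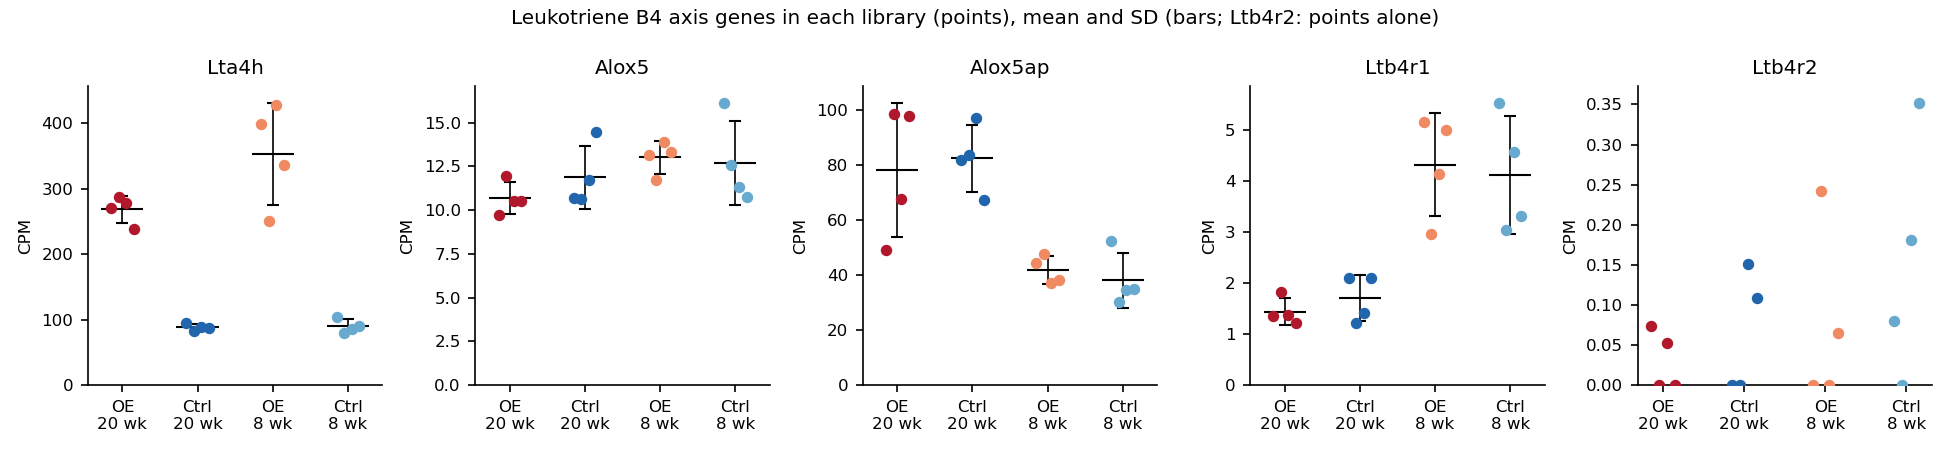
CPM (read counts scaled to library size by TMM, linear axes from 0) of the 5 genes in each library, 1 point per mouse, in OE and Ctrl pads at 20 and 8 weeks; horizontal lines are means and bars SD over 4 mice, with points alone for Ltb4r2. Lta4h separates OE from Ctrl, whereas Alox5ap and Ltb4r1 separate 20 from 8 weeks.

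No other gene of the axis was called between OE and Ctrl (edgeR). Of the 4 genes tested, Lta4h alone was called between OE and Ctrl at 20 weeks, where 0.0261% of all genes were called, and Lta4h alone at 8 weeks, where 0.0208% were. Alox5 was 0.899-fold of Ctrl in OE at 20 weeks (95% interval 0.737 to 1.10; adjusted p = 0.996, edgeR) and 1.03-fold at 8 weeks (0.842 to 1.25). Alox5ap was 0.950-fold at 20 weeks (0.690 to 1.31; adjusted p = 0.996, edgeR) and 1.10-fold at 8 weeks (0.799 to 1.51). Ltb4r1 was 0.846-fold at 20 weeks (0.575 to 1.24; adjusted p = 0.996, edgeR) and 1.05-fold at 8 weeks (0.719 to 1.54). None of these was called in DESeq2 or limma voom either, and the intervals do not reach the size of the Lta4h difference. With both ages averaged, Lta4h was 3.45-fold higher in OE (95% interval 2.98 to 4.01), and it was again the one gene of the axis called, among the 0.0365% of all genes that were.

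Whether the OE effect on Lta4h differs with age was tested as an interaction of genotype and age, which called 0 of 19189 genes (0%) in edgeR. At an unadjusted p under 0.05 that test picked 650 genes, DESeq2 called 30 and limma voom 0. For Lta4h the interaction was −0.38 ± 0.19 on the log2 scale (95% interval −0.79 to 0.04; unadjusted p = 0.0737, adjusted p = 0.982, edgeR), that is, a lower point estimate of the OE effect at 20 weeks. The interactions for Alox5 (−0.19 ± 0.19), Alox5ap (−0.21 ± 0.30) and Ltb4r1 (−0.31 ± 0.36) were likewise uncalled.

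**Figure D2:**
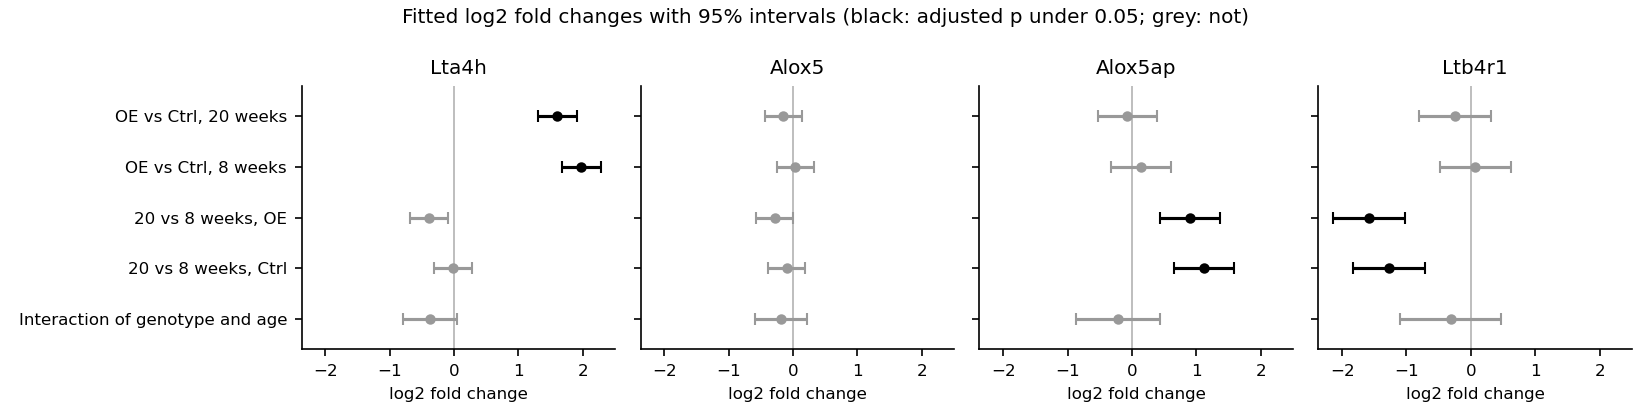
Fitted log2 fold changes of the 4 tested genes (points) with 95% intervals (bars) in 5 comparisons; black marks an adjusted p under 0.05 and grey the others. Lta4h is called between OE and Ctrl at both ages, Alox5ap is higher and Ltb4r1 lower at 20 weeks in both genotypes, and Alox5 is called nowhere.

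Between the ages, Lta4h was called in neither genotype in edgeR. In OE pads it was 0.761-fold of the 8-week level at 20 weeks (95% interval 0.620 to 0.933; log2 fold change −0.39 ± 0.14), with an unadjusted p of 0.0123 and an adjusted p of 0.0522 in edgeR. In Ctrl pads it was 0.987-fold (95% interval 0.805 to 1.21; log2 fold change −0.02 ± 0.14; adjusted p = 0.927, edgeR). Single libraries decide the call in OE. Without OE replicate 2 at 8 weeks, which held duct transcripts, the log2 fold change was −0.53 with an adjusted p of 0.00366 (edgeR). Without Ctrl replicate 1 at 8 weeks it was −0.39 with an adjusted p of 0.0474, and DESeq2 with all libraries gave −0.40 with an adjusted p of 0.0154.

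Within the 8-week OE pads, the order of Lta4h was that of the adipocyte markers. OE replicates 3, 1, 4 and 2 stood in this order for both, the markers summing to 41910, 40230, 34030 and 23250 CPM. Per 1000 CPM of these markers Lta4h was 10.2 ± 0.435 CPM in OE and 2.61 ± 0.597 CPM in Ctrl at 8 weeks (SD, n = 4 each). The spread of Lta4h among the 8-week OE mice was thus small on this scale. The other groups did not share this order. At 8 weeks Ctrl replicate 2 had the highest marker sum of its group, 40200 CPM, and the lowest Lta4h, 79.4 CPM. At 20 weeks the OE marker sum was highest in replicate 1 (29150 CPM) and Lta4h in replicate 2 (286 CPM). Per 1000 CPM of the markers Lta4h was 11.6 ± 1.75 CPM in OE and 4.67 ± 0.783 CPM in Ctrl at 20 weeks, against 268.5 ± 20.75 CPM unscaled in OE. In Ctrl pads the ratio was thus higher at 20 than at 8 weeks, with no overlap, while Lta4h itself was not called and the adipocyte markers were lower. Of the 10 adipocyte markers, 6 fell at 20 weeks in OE (median log2 fold change −0.77) and 6 fell in Ctrl (−1.15), where 9.91% of all genes were called lower in OE and 21.3% in Ctrl.

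Alox5ap, the FLAP gene (ID 11690, chromosome 5, 149265004 to 149288153), was higher at 20 weeks in both genotypes. At 20 weeks it had 49.0, 98.6, 67.5 and 97.9 CPM in OE and 81.8, 83.5, 97.1 and 67.2 CPM in Ctrl. In the 8-week pads it had 44.3, 47.6, 37.0 and 38.3 CPM in OE and 52.5, 30.1, 34.6 and 34.9 CPM in Ctrl. The ages did not overlap within either genotype, and OE replicate 1 at 20 weeks lay just above the highest 8-week OE library. In OE the level was 1.87-fold higher at 20 weeks (95% interval 1.36 to 2.58; log2 fold change 0.90 ± 0.22; adjusted p = 0.00896, edgeR). In Ctrl it was 2.17-fold higher (95% interval 1.57 to 2.996; log2 fold change 1.12 ± 0.22; adjusted p = 0.00138, edgeR). With 2 surrogate variables (estimated unlabelled variation) in the fit, both calls were lost, at 0.39 in OE (adjusted p = 0.137) and 0.37 in Ctrl (adjusted p = 0.282, edgeR). Alox5ap was the 1 of 4 axis genes called higher in each genotype, where 13.1% of all genes were called higher in OE and 19.6% in Ctrl.

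Alox5, the 5-lipoxygenase gene (ID 11689, chromosome 6, 116410071 to 116461178), was called in neither genotype with age. At 20 weeks it had 9.72, 12.0, 10.5 and 10.5 CPM in OE and 10.7, 10.6, 11.7 and 14.4 CPM in Ctrl. The 8-week values were 13.2, 11.7, 13.9 and 13.3 CPM in OE and 16.1, 12.5, 11.3 and 10.7 CPM in Ctrl. All 4 groups overlapped one another in level. The fold at 20 weeks was 0.821 in OE (95% interval 0.672 to 1.002; adjusted p = 0.139, edgeR) and 0.937 in Ctrl (0.768 to 1.14; adjusted p = 0.599, edgeR). A lncRNA gene, Gm38880, lies within the Alox5 locus and shares 35077 bases with it, and the strand setting of the counting is not given in the sources used here. Gm38880 had at most 0.794 CPM in any library.

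Markers of macrophages and mast cells were higher at 20 weeks beside Alox5ap, while lists for B and plasma, T and dendritic cells were mixed. The 10 macrophage markers summed to 2216 to 4709 CPM in OE and 3403 to 5589 CPM in Ctrl at 20 weeks, and to 1185 to 1691 CPM in OE and 974.8 to 1497 CPM in Ctrl at 8 weeks. At 20 weeks 8 of them rose and 1 fell in OE (median log2 fold change 1.42), and 9 rose in Ctrl (1.99), where 13.1% of all genes were called higher and 9.91% lower in OE, and 19.6% higher in Ctrl. OE replicate 1, with the lowest Alox5ap of the 20-week libraries, also had the lowest macrophage sum and the highest adipocyte sum among them. Per 1000 CPM of macrophage markers, Alox5ap was 20.6 ± 2.18 CPM in OE and 17.3 ± 1.74 CPM in Ctrl at 20 weeks, and 30.9 ± 1.98 CPM in OE and 33.1 ± 2.37 CPM in Ctrl at 8 weeks (SD, n = 4 each). Set against these markers, Alox5ap was lower at 20 weeks, with no overlap between the ages in either genotype. On the same scale Alox5 was 3.0 ± 0.935 CPM in OE and 2.62 ± 1.08 CPM in Ctrl at 20 weeks, and 9.80 ± 2.09 CPM in OE and 11.2 ± 1.36 CPM in Ctrl at 8 weeks. Of 8 mast cell markers 6 rose in each genotype, their sums being 84.8 to 158 CPM in OE and 146 to 301 CPM in Ctrl at 20 weeks, and 33.8 to 79.7 CPM in OE and 25.4 to 69.8 CPM in Ctrl at 8 weeks. Of 7 B and plasma cell markers 1 rose in OE (median log2 fold change −0.56) and 6 in Ctrl (2.33). Of 7 T cell markers 0 were called in OE (median −0.30) and 1 rose in Ctrl (0.855). Of 6 dendritic cell markers 1 rose and 1 fell in OE (median −0.09), and 2 rose and 1 fell in Ctrl (0.55). The part of these cell types in the change of Alox5ap was not tested.

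**Figure D3:**
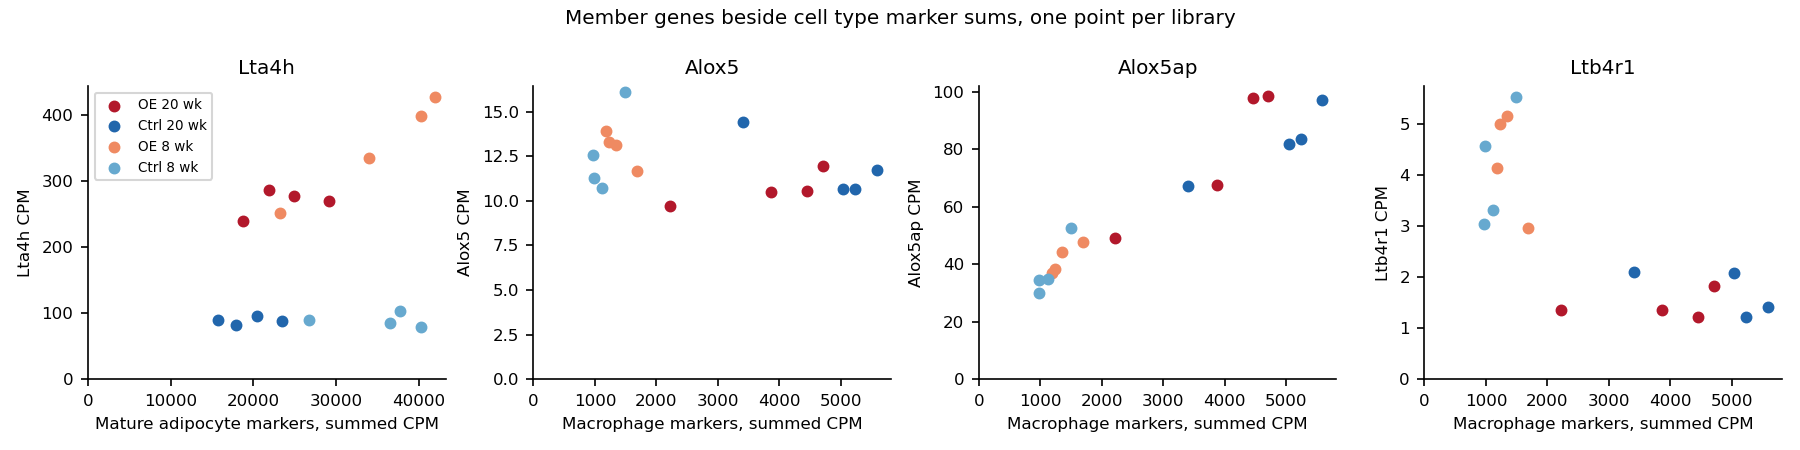
CPM of 4 genes (vertical axes) against the summed CPM of 10 mature adipocyte markers (Lta4h) or 10 macrophage markers (Alox5, Alox5ap, Ltb4r1), 1 point per library, linear axes from 0. Alox5ap lies higher where macrophage markers do, Alox5 stays between 9.72 and 16.1 CPM throughout, and Ltb4r1 is lower in the 20-week libraries.

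Levels of different genes were set side by side in TPM, the authors' values per transcript length. In OE pads at 20 weeks the order was Lta4h (278 ± 19.3 TPM), Alox5ap (165 ± 51.8), Alox5 (8.06 ± 0.684) and Ltb4r1 (1.74 ± 0.243). In Ctrl pads at 20 weeks it was Alox5ap (177 ± 27.1 TPM), Lta4h (93.6 ± 5.16), Alox5 (9.15 ± 1.53) and Ltb4r1 (1.96 ± 0.544). In OE pads at 8 weeks it was Lta4h (347 ± 47.9 TPM), Alox5ap (85.6 ± 16.9), Alox5 (9.44 ± 0.403) and Ltb4r1 (5.60 ± 1.22). In Ctrl pads at 8 weeks Lta4h (88.7 ± 11.9 TPM) and Alox5ap (76.3 ± 18.2) overlapped, above Alox5 (9.07 ± 1.34) and Ltb4r1 (5.27 ± 1.83). In the other 3 groups neighbours in the order did not overlap between libraries. The length implied for Ltb4r1 by its counts and FPKM ranged from 1636 to 3001 bases between libraries, and its TPM vary with that length. Lta4h and Alox5ap thus changed places between OE and Ctrl pads at 20 weeks, and Alox5 was far below both in all groups.

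The ratio of Lta4h to Alox5, the gene of the enzyme that makes the substrate of LTA4H, separated OE from Ctrl at each age. It was 34.6 ± 3.23 in OE and 10.4 ± 1.64 in Ctrl at 20 weeks, and 36.9 ± 6.01 in OE and 9.86 ± 1.34 in Ctrl at 8 weeks (TPM over TPM within each library, SD, n = 4 each). On the log2 scale OE exceeded Ctrl by 1.74 ± 0.13 at 20 weeks and by 1.90 ± 0.16 at 8 weeks. The exact two-sided permutation test gave p = 0.0286 at each age, the smallest that 4 against 4 allows, and 0.0571 after adjustment over the 4 ratios tested, which is not a call. Between 20 and 8 weeks the difference was −0.08 ± 0.14 in OE and 0.08 ± 0.15 in Ctrl (exact p = 0.6 each). The ratio of Alox5ap to Alox5, in contrast, was 20.3 ± 5.28 in OE and 19.9 ± 4.63 in Ctrl at 20 weeks, and 9.08 ± 1.75 in OE and 8.37 ± 1.13 in Ctrl at 8 weeks, so the ages did not overlap and the genotypes did.

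**Figure D4:**
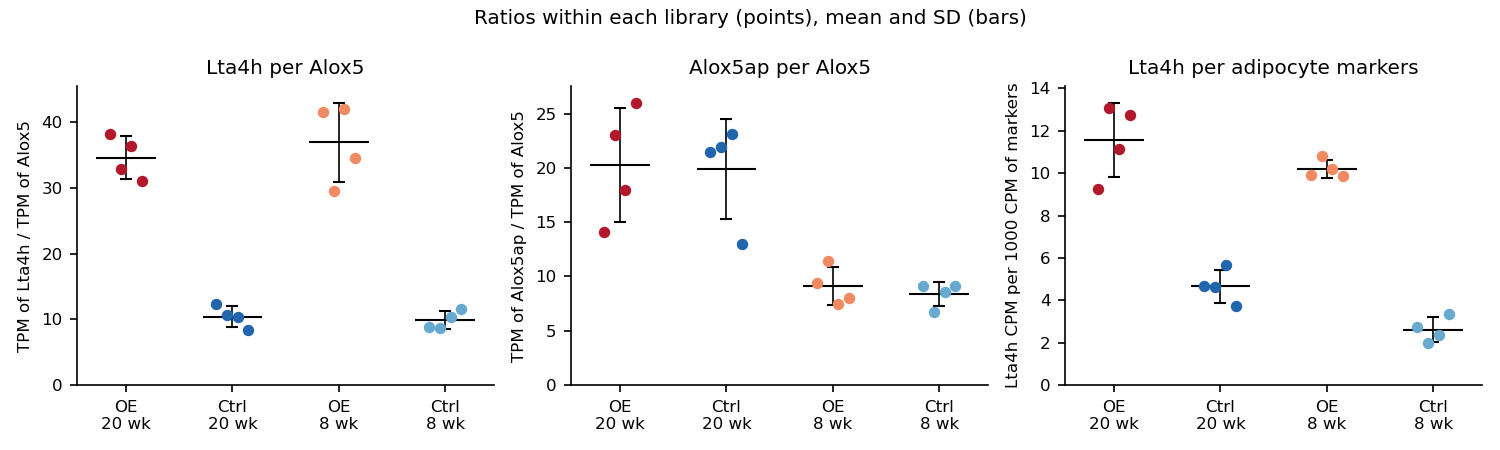
Ratios within each library (points) with mean and SD over 4 mice (lines and bars): Lta4h to Alox5 and Alox5ap to Alox5 in TPM, and Lta4h CPM per 1000 CPM of 10 adipocyte markers, linear axes from 0. Lta4h to Alox5 separates OE (31.1 to 38.2 at 20 weeks) from Ctrl (8.32 to 12.3), and Alox5ap to Alox5 separates 20 from 8 weeks.

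Ltb4r1, the gene of the high-affinity receptor BLT1 (ID 16995, chromosome 14, 55765962 to 55768492), was lower at 20 weeks in both genotypes, while macrophage markers were higher. At 20 weeks it had 1.35, 1.83, 1.36 and 1.22 CPM in OE and 2.09, 1.22, 1.41 and 2.098 CPM in Ctrl. At 8 weeks it had 5.15, 2.96, 4.14 and 5.0 CPM in OE and 5.52, 3.04, 4.56 and 3.32 CPM in Ctrl. Every 20-week library lay below every 8-week library, on counts of 45 to 245 reads. The level in OE was 2.99-fold lower at 20 weeks (log2 fold change −1.58 ± 0.26; adjusted p = 0.00117, edgeR). In Ctrl it was 2.41-fold lower (log2 fold change −1.27 ± 0.26; adjusted p = 0.00199, edgeR), and −1.11 and uncalled with 2 surrogate variables (adjusted p = 0.0563, edgeR). Ltb4r1 was the 1 of 4 axis genes called lower in each genotype, where 9.91% of all genes were called lower in OE and 21.3% in Ctrl; 23% of all genes were called in either direction in OE and 40.9% in Ctrl.

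Most listed smooth muscle and adipocyte markers were called lower at 20 weeks in both genotypes beside Ltb4r1. Endothelial markers were called lower mostly in Ctrl and mesothelial markers mostly in OE. Endothelial markers summed to 434 to 845 CPM in OE and 428 to 609 CPM in Ctrl at 20 weeks, and to 760 to 1025 CPM in OE and 763 to 994 CPM in Ctrl at 8 weeks, with 1 of 5 falling in OE and 4 of 5 in Ctrl. Of 6 smooth muscle markers, 5 fell in each genotype, and of 5 mesothelial markers 4 fell in OE and 1 in Ctrl. The mesothelial median log2 fold change was −1.72 in OE and −0.025 in Ctrl, where the summed levels of the ages overlapped. The adipocyte markers, 6 of 10 lower in each genotype, are given above. Of all genes, 9.91% were called lower in OE and 21.3% in Ctrl. These marker counts include the 2 libraries with duct transcripts. Neutrophils are the best known bearers of BLT1, and their 8 markers were scarce and not lower at 20 weeks: they summed to 27.2 to 51.1 CPM in OE and 29.4 to 42.9 CPM in Ctrl, against 9.497 to 21.9 CPM in OE and 11.2 to 20.1 CPM in Ctrl at 8 weeks. The granulocyte marker Ly6g was at 0 in 15 of 16 libraries. Leaving out the 2 libraries with duct transcripts, the log2 fold change of Ltb4r1 was −1.73 in OE and −1.36 in Ctrl, both called. The part of these cell types in the change was not tested.

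Ltb4r2, the gene of the low-affinity receptor BLT2 (ID 57260, chromosome 14, 55757922 to 55764066), lay near or at 0. It had 3, 0, 2 and 0 reads in OE and 0, 0, 6 and 4 reads in Ctrl at 20 weeks. The 8-week pads had 0, 9, 0 and 3 reads in OE and 3, 0, 8 and 26 reads in Ctrl. A count of 0, found in 7 libraries, allows a level of up to 0.0648 to 0.0887 CPM in them by counting error alone. Ltb4r2 did not pass the filter on low counts. Fitted without that filter, it was uncalled between OE and Ctrl at 20 weeks (log2 fold change −1.0 ± 1.58, 95% interval −4.36 to 2.36) and at 8 weeks (−1.0 ± 1.47, −4.12 to 2.12), and between 20 and 8 weeks in OE (−1.23 ± 1.57, −4.58 to 2.12) and in Ctrl (−1.23 ± 1.48, −4.39 to 1.92; edgeR). With intervals this wide no difference was detectable at this depth. The highest values in each 8-week group, 9 and 26 reads, stood in the 2 libraries with duct transcripts. The gene ends 1895 bases before Ltb4r1 and overlaps Cideb, a lipid droplet protein gene, by 503 bases, and how reads in the overlap were assigned is not given in the sources used here.

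Beyond the 5 genes, lists of pathway genes were counted by role. Between OE and Ctrl, 0 of the 45 other listed genes tested were called at 20 weeks and 0 at 8 weeks (edgeR), where 1 (Lvrn, at −0.79) and 0 had an unadjusted p under 0.05 and DESeq2 and limma voom called 0 at both ages. With age 17 were called in OE and 22 in Ctrl, and many of all genes were too, so each count below is to be read against 13.1% higher and 9.91% lower in OE and 19.6% higher and 21.3% lower in Ctrl. The median log2 fold change of all genes was −0.03 in OE and −0.05 in Ctrl. With 2 surrogate variables in the fit 15 of the 45 were called with age in OE and 10 in Ctrl.

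Of 3 genes that feed or bind 5-lipoxygenase, 2 rose at 20 weeks in OE and 2 in Ctrl (median log2 fold change 0.45 in OE and 0.46 in Ctrl). Cotl1, coactosin-like protein, which binds 5-lipoxygenase, rose by 1.56 ± 0.34 on the log2 scale in OE and by 1.69 ± 0.35 in Ctrl. Mapkapk2, a kinase that phosphorylates 5-lipoxygenase, rose by 0.45 ± 0.11 in OE and 0.46 ± 0.11 in Ctrl. Pla2g4a, the cytosolic phospholipase A2 that frees arachidonic acid, was not called, at −0.25 ± 0.44 in OE and −0.15 ± 0.44 in Ctrl. Without the 2 libraries with duct transcripts it was higher at 20 weeks in Ctrl, by 0.68 (adjusted p = 0.00356, edgeR). With 2 surrogate variables 2 of the 3 genes were called higher in OE and 0 in Ctrl. In Ctrl Cotl1 was then at 0.60 (adjusted p = 0.0845) and Mapkapk2 at 0.42 (adjusted p = 0.0507, edgeR).

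The branch from leukotriene A4 to the cysteinyl leukotrienes and the exporters showed 1 of 5 genes lower in each genotype, Mgst3, a microsomal glutathione transferase, at −0.72 ± 0.23 in OE and −0.85 ± 0.23 in Ctrl. Its call in OE was lost in 7 of 16 fits with 1 library left out. With 2 surrogate variables 1 of the 5 was called higher and 0 lower in each genotype. In Ctrl Mgst3 was then at −0.05 (adjusted p = 0.917) and Mgst2 higher by 0.92 (adjusted p = 0.0429, edgeR). Ltc4s, the synthase that competes with LTA4H for its substrate, was at 0.12 ± 0.30 in OE and −0.20 ± 0.30 in Ctrl, uncalled. For breakdown of leukotriene B4, 11 genes were listed and 10 tested. These are cytochromes P450 of the CYP4F family, some of which hydroxylate leukotriene B4, with Ptgr1 and Aldh3a2 acting on it or its products. The CYP4F genes were listed by family, and not each is known to act on leukotriene B4. In OE 2 rose and 0 fell, and in Ctrl 2 rose and 2 fell. Cyp4f13 rose by 0.37 ± 0.12 in OE and 0.56 ± 0.12 in Ctrl, and its call in OE was lost in 11 of 16 fits with 1 library left out. Cyp4f39 rose by 1.54 ± 0.45 in OE and 1.43 ± 0.45 in Ctrl, with the call lost in 4 of 16 such fits in OE and 2 of 16 in Ctrl. Cyp4f18, whose mouse product oxidises leukotriene B4 in neutrophils, was at 0.26 ± 0.27 in OE and 0.54 ± 0.27 in Ctrl, uncalled. Of the 2 that fell in Ctrl, Cyp4f15 was at 0 in all 4 Ctrl libraries at 20 weeks. Taking 3 counts over the group as the limit, it was at least 58.4-fold lower there than in Ctrl at 8 weeks. This bound covers counting error alone and not the spread between mice. The call of Cyp4f15 was lost in 7 of 16 such fits, and with 2 surrogate variables it was at −1.59 (adjusted p = 0.594, edgeR). The other was Cyp4f17, at −0.68 ± 0.25, whose call was lost in 10 of 16 such fits. Without the 2 libraries with duct transcripts 1 rose in OE, and 2 rose and 0 fell in Ctrl. With 2 surrogate variables 0 of the 10 were called in OE, and 0 were called higher and 1 lower in Ctrl. There the calls of Cyp4f13, Cyp4f39, Cyp4f15 and Cyp4f17 in Ctrl were lost, and Ptgr1 was lower (−1.19, adjusted p = 0.0101, edgeR).

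Of 5 makers of other BLT2 ligands, 1 rose and 2 fell in OE, and 1 rose and 3 fell in Ctrl. Without the 2 duct libraries 2 fell in each genotype, the call of Alox12 in Ctrl being lost (adjusted p = 0.0801, edgeR). Tbxas1, thromboxane synthase, which also yields the BLT2 ligand 12-HHT, rose by 2.15 ± 0.32 in OE and 2.81 ± 0.32 in Ctrl. Ptgs1, a cyclooxygenase upstream of it, was lower at 20 weeks, at −1.21 ± 0.41 in OE and −1.09 ± 0.41 in Ctrl. Its call was lost in 9 of 16 fits with 1 library left out in each genotype. The value was −0.72 in OE without OE replicate 2 at 8 weeks (adjusted p = 0.16, edgeR) and −0.48 in Ctrl without Ctrl replicate 4 at 8 weeks (adjusted p = 0.232, edgeR). Ptgs2, the inducible cyclooxygenase, was called lower in Ctrl, but Ctrl replicate 4 at 8 weeks alone held 959 CPM of it, and without that library the log2 fold change was −1.26 and uncalled (adjusted p = 0.591, edgeR). In OE Ptgs2 was uncalled, at −7.63 to −1.06 with 1 library left out. Without Ctrl replicate 4 at 8 weeks it became a call in OE (−7.22, adjusted p = 0.0127, edgeR). Alox15, a lipoxygenase, fell by 2.31 on the log2 scale in OE and was at −0.66 ± 0.42 in Ctrl, uncalled; the interaction had an adjusted p of 0.982 (edgeR).

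Genes of signalling proteins known downstream of BLT receptors did not follow the lower level of Ltb4r1 with age. Of 8 tested, 4 rose in OE and 6 in Ctrl and 0 fell in either, with a median log2 fold change of 0.85 in OE and 1.01 in Ctrl. Pik3r5, a regulatory subunit of the PI3-kinase gamma of leukocytes, rose by 2.12 in OE and 2.53 in Ctrl, and Pik3cg, its catalytic subunit, by 1.30 in OE and 1.84 in Ctrl. Arrb2, beta-arrestin 2, rose by 1.11 in OE and 1.64 in Ctrl. Gna15, a G protein alpha subunit of blood cells, rose by 0.99 in OE and 1.02 in Ctrl, its call in OE being lost in 2 of 16 fits with 1 library left out. Without the 2 duct libraries 5 rose in OE and 6 in Ctrl, and with 2 surrogate variables 3 rose in OE and 2 in Ctrl. In the fit with surrogate variables the calls lost were Gna15 in OE (0.38, adjusted p = 0.282) and Gna15 (0.21, 0.654), Gnai2 (0.21, 0.352), Pik3r5 (1.01, 0.0672) and Plcb2 (−0.16, 0.75) in Ctrl (edgeR). These proteins serve many receptors, and the macrophage marker values above stand beside their changes as well.

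The aminopeptidase side of LTA4H was followed through 4 genes of the Pro-Gly-Pro cycle: the collagenase genes Mmp8 and Mmp9, the prolyl endopeptidase gene Prep and the chemokine receptor gene Cxcr2. At 20 weeks 0 of 4 were called in OE and 0 in Ctrl (edgeR), with 1 and 0 at an unadjusted p under 0.05, 1 and 0 called by limma voom, and 0 called by DESeq2 in both. They had a median log2 fold change of −0.02 in OE and 0.33 in Ctrl, with members on both sides of 0. With 1 library left out, Mmp8 spanned 1.059 to 3.73 in OE and 1.005 to 2.178 in Ctrl. Mmp9 spanned −1.397 to −0.6085 in OE and −1.298 to −0.689 in Ctrl. Cxcr2 spanned −0.7046 to 0.05226 in OE and −0.1155 to 1.145 in Ctrl. Mmp8 was the gene called by limma voom in OE (4.138, adjusted p = 0.0481). Without Ctrl 1 and OE 1 at 8 weeks, edgeR called Mmp8 higher in OE too (3.735, adjusted p = 0.0369). Prep was at 0.12 ± 0.12 in OE and 0.15 ± 0.12 in Ctrl. Among 10 relatives of LTA4H in the M1 aminopeptidase family, 2 rose and 3 fell in OE, and 3 rose and 2 fell in Ctrl. Without the 2 duct libraries 2 rose and 4 fell in OE, where Enpep became a call (adjusted p = 0.0118), and 2 rose and 3 fell in Ctrl, where Rnpep was lost (0.0611) and Lnpep gained (0.0277, edgeR). Anpep, aminopeptidase N, rose by 2.88 ± 0.36 in OE and 3.34 ± 0.37 in Ctrl, and Aopep by 1.64 in OE and 2.07 in Ctrl. Trhde, which cleaves thyrotropin-releasing hormone, was lower, at −1.27 ± 0.42 in OE and −2.15 ± 0.44 in Ctrl, the call in OE being lost in 10 of 16 fits with 1 library left out. Lvrn, laeverin, was lower in OE at −0.91 ± 0.21 and at 0.34 ± 0.21 in Ctrl, uncalled, with an adjusted p of 0.982 for the interaction (edgeR), which DESeq2 called (−1.24, adjusted p = 0.0489).

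**Figure D5:**
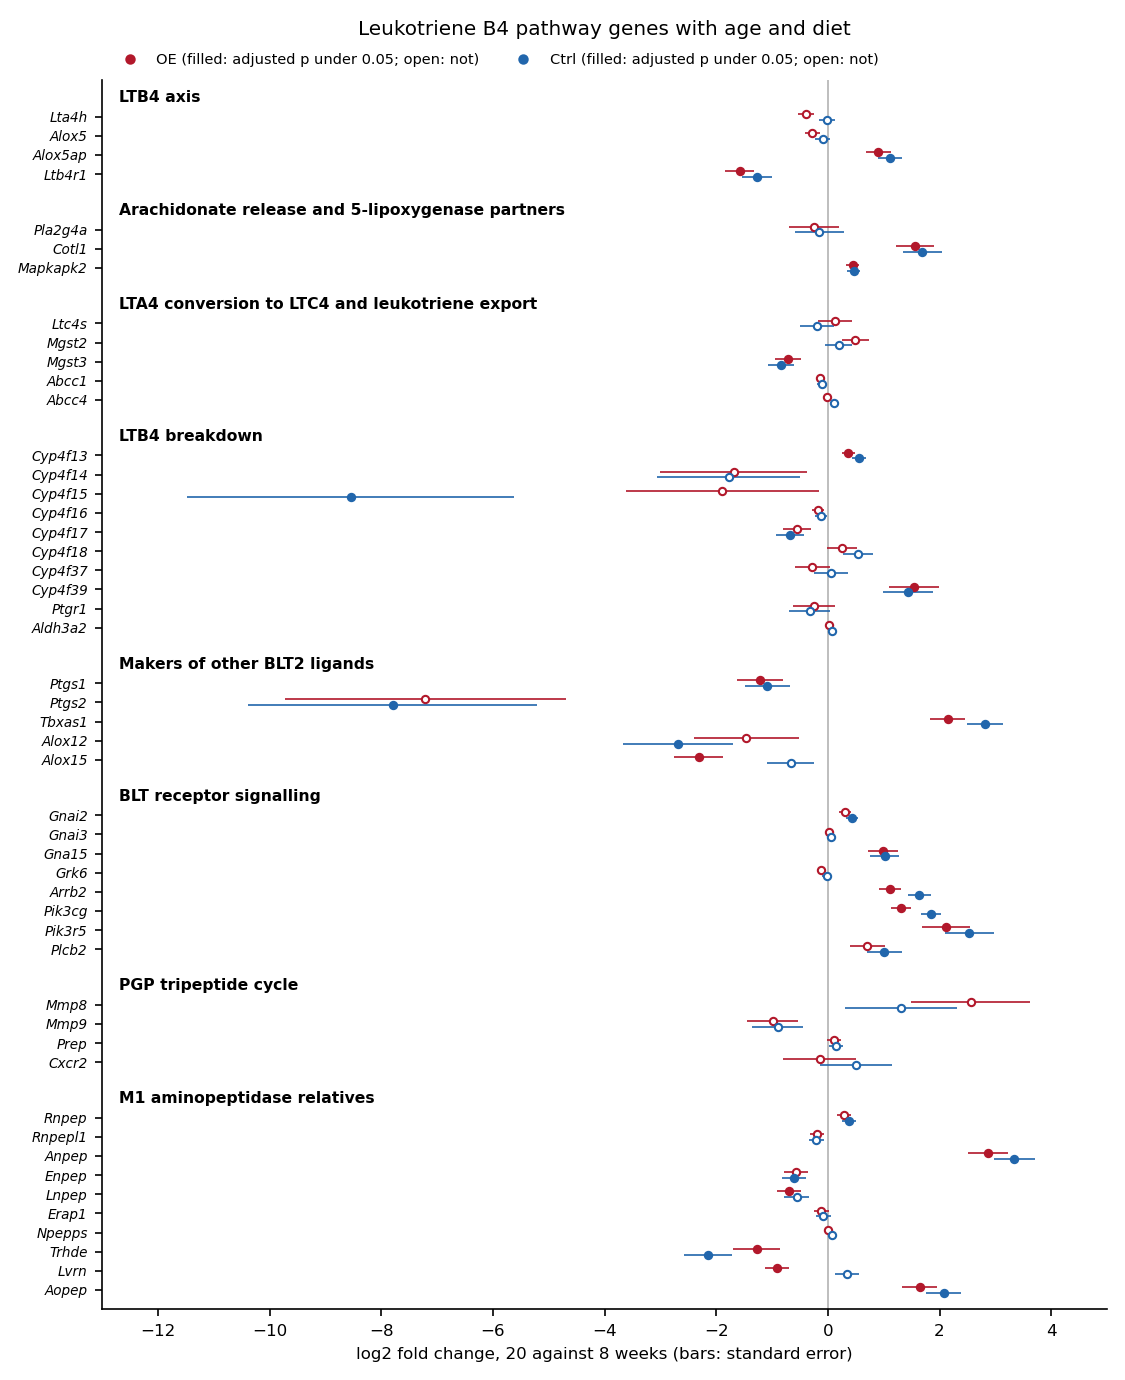
Log2 fold change at 20 against 8 weeks (points, bars SE) of every tested gene of the 8 pathway lists in OE and Ctrl pads; filled points have an adjusted p under 0.05 and open points do not. Members of the BLT signalling list lie at or right of 0 apart from Grk6, and Ltb4r1 lies left of it in both genotypes.

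Of 8 genes next to or over the 5 loci that were tested, 0 were called between OE and Ctrl at either age (edgeR, DESeq2 and limma voom), and 1 at each age had an unadjusted p under 0.05. Hal, histidine ammonia-lyase, which starts 3871 bases after Lta4h, was at −0.51 ± 0.37 in OE against Ctrl at 20 weeks and 1.03 ± 0.37 at 8 weeks (adjusted p = 0.996 at 20 weeks, edgeR). With age it fell by 1.48 on the log2 scale in OE (adjusted p = 0.0113, edgeR) and was at 0.06 ± 0.37 in Ctrl, uncalled, with an adjusted p of 0.982 for the interaction (edgeR). With age 1 of the 8 was called in OE, Hal, and 3 in Ctrl. In Ctrl Cideb was lower at 20 weeks, at −5.50 ± 1.58 on 0 to 4 reads at 20 weeks against 8 to 234 at 8 weeks, and the lncRNA gene Gm24105 was higher, at 2.38 ± 0.84 on 8 to 31 reads against 3 to 7. Gm38880 was at 0 in all 4 Ctrl libraries at 20 weeks and had 0, 25, 35 and 46 reads in Ctrl at 8 weeks. The calls of Gm24105 and Gm38880 were each lost in 7 of 16 fits with 1 library left out. With 2 surrogate variables Hal in OE (adjusted p = 0.0628, edgeR) and all 3 in Ctrl were uncalled. March8, which ends 530 bases before the Alox5 locus begins on the chromosome, was at −0.005 ± 0.07 in OE against Ctrl at 20 weeks and 0.07 ± 0.07 at 8 weeks.

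Genes most like each member were named by the root mean square difference of their log2 CPM, centred on each gene's mean, over the 16 libraries. For Alox5ap they were Elf4 (0.106), Adam17 (0.108), Tmsb4x (0.111), Tagln2 (0.113) and Il10rb (0.121), all small beside the SD of 0.596 of Alox5ap itself. For Ltb4r1 they were Mettl7b (0.284), Prrg3 (0.311), Ddr1 (0.319), Thbd (0.323) and Hspb8 (0.326), against an SD of 0.789. For Alox5 they were Cetn3 (0.118), Hspa13 (0.123), Heg1 (0.123), Adam15 (0.126) and Hikeshi (0.127), against an SD of 0.199, so that genes with little movement were picked. For Lta4h the nearest was Zfp949 at 0.513, followed by Eif4a2 (0.618), Bckdhb (0.630), Morf4l1b (0.644) and Rfc4 (0.716), against an SD of 0.945. The difference depends on how far the member itself moves, so its size is not comparable between members. Zfp949 was higher in OE by 1.47 ± 0.20 on the log2 scale at 20 weeks (adjusted p = 0.0142, edgeR) and was at 1.12 ± 0.20 at 8 weeks, uncalled. Morf4l1b, whose reads may be shared with its near copy Morf4l1, was at 0.46 ± 0.07 at 20 weeks, uncalled, and higher in OE by 0.61 ± 0.07 at 8 weeks (adjusted p = 0.00426, edgeR). Averaged over the ages Zfp949, Morf4l1b and Eif4a2 were called higher in OE. Likeness to Lta4h over the same libraries picked them, so a higher level in OE follows in part from the choice. Without the 2 libraries with duct transcripts, 4 of 5 genes stayed the same for Lta4h, 3 for Alox5ap, 3 for Ltb4r1 and 2 for Alox5. Ranked by Pearson's r in place of the root mean square difference, 4 of 5 stayed for Lta4h, 1 for Alox5ap, 2 for Ltb4r1 and 3 for Alox5.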

How the data were processed

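Stranded mRNA libraries (TruSeq) were made from RNeasy-extracted RNA, per the labels' protocols. The authors used bcl2fastq 2.20.0, Trimmomatic (no version given), HISAT2 2.1.0 and StringTie 2.1.3b with the mm10 build, per the submitters' processing notes; the annotation release and the strand setting are not given in the sources used here. The authors deposited read counts per gene, whole numbers with no normalization, and these were tested. The deposited TPM (per transcript length, one sum per library) were used to compare genes, and the deposited FPKM only for implied lengths, which are counts over FPKM and library total. For Lta4h this length moved with a factor shared by Alox5 and Alox5ap in each library, so its planned test between OE and Ctrl could show nothing and is left out.

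In edgeR 4.0.16 (R 4.3.3), filterByExpr at a minimum count of 10 kept 19189 genes. TMM scaling and a robust quasi-likelihood fit of all 16 libraries (12 residual degrees of freedom) gave 6 contrasts, which share groups. Benjamini-Hochberg adjustment ran across every gene tested, with a call at an adjusted p under 0.05. CPM are TMM-scaled counts. Errors of fold changes are SE from this fit. Alternatives were DESeq2 1.42.0, limma 3.58.1 voom, sva 3.50.0, other scaling and filters, and libraries left out. Exact permutation tests used scipy 1.17.1; figures used Python 3.11.15 and matplotlib 3.10.9. Of 45777 gene IDs, 45679 matched RefSeq GRCm38.p6, the source of positions and promoters.

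The members and lists were chosen with earlier results of these data known. Named are the members, overlapping and neighbouring genes, up to 4 called genes per list by adjusted p, further list members given with their values as background, and the 5 nearest profiles (mean log2 CPM of at least 1, prior count 2). Cyp4f18, Ltc4s, Pla2g4a and the Pro-Gly-Pro genes were named after their values were seen. Depth of 33.6 to 67.6 M reads limits Ltb4r2 most, and limits for counts of 0 (3 counts, 95% confidence) cover counting error only. No replicate pair agreed within sampling noise.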

Additional observations from a re-analysis of the deposited data

How the results depend on the processing

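Of the 4 axis genes tested, Lta4h kept its call between OE and Ctrl at both ages in every alternative run, with log2 fold changes of 1.57 to 1.65 at 20 weeks and 1.87 to 2.11 at 8 weeks when 1 library was left out. Alox5ap and Ltb4r1 kept their calls with age except with 2 surrogate variables in the fit, where Alox5ap was at 0.39 in OE (adjusted p = 0.137) and 0.37 in Ctrl (adjusted p = 0.282) and Ltb4r1 at −1.11 in Ctrl (adjusted p = 0.0563); the cause was not tested. Leaving out 1 library gave 0.77 to 1.09 in OE and 1.02 to 1.31 in Ctrl for Alox5ap, and −1.73 to −1.49 in OE and −1.39 to −1.10 in Ctrl for Ltb4r1. Lta4h at 20 against 8 weeks in OE became a call with RLE scaling (−0.40, adjusted p = 0.0404), DESeq2 (−0.40, 0.0154), voom (−0.39, 0.0149) and without the 2 libraries with duct transcripts (−0.53, 0.00398), and spanned −0.53 to −0.29 with 1 library left out. Direction was compared only where a value was called. Among listed genes, Pla2g4a in Ctrl turned to 0.68 without the 2 duct libraries, and with 2 surrogate variables Alox12 turned to 0.78 and Plcb2 to −0.16 in Ctrl.

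Counts of called genes moved more. At 20 weeks OE against Ctrl gave 5, against 59 in DESeq2, 20 in voom and 3 to 6 with 1 library left out (3 without Ctrl replicate 2 or 3 or OE replicate 1, 2 or 3 at 20 weeks). At 8 weeks it gave 4, against 15 in DESeq2, 12 in voom, 8 with only the groups compared and 4 to 9 with 1 library left out. The average gave 7, against 33 in DESeq2 and 6 to 11. The highest counts for 8 weeks, the average and the interaction came without OE replicate 4 at 20 weeks. Age in OE gave 4411, against 7648 in voom, 2695 with surrogate variables and 2733 to 5786 (2733 without OE replicate 4 and 2866 without OE replicate 2 at 20 weeks, 2939 without OE replicate 3 at 8 weeks). Age in Ctrl gave 7853, against 1758 with surrogate variables and 5483 to 8105. The interaction gave 0, against 30 in DESeq2 and 0 to 3.

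Replicate numbers do not pair the libraries: of 24 same-numbered pairs 2 had correlated deviations over 0.1 (range −0.597 to 0.826), and 2 of 16 libraries correlated best with their own number. Some 8-week libraries did share deviations across genotypes: Ctrl 1 with OE 1 (0.826), Ctrl 4 with OE 2 (0.692) and Ctrl 3 with OE 4 (0.625). Without Ctrl 1 and OE 1 at 8 weeks as many axis genes were called as before. Among results of the other listed and neighbouring genes, 6 gained a call and 5 lost it. With the replicate block no call of an axis gene changed, Lta4h being at 1.61 at 20 weeks and 1.97 at 8 weeks, and 3810 genes were called with age in OE and 6545 in Ctrl. The ratio tests cannot pass the threshold with a library left out (smallest p 0.0571) or in 4 pairs (0.125).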
